A study of Mus musculus with 12 samples.

Results

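Transcripts of 9 genes that restrain MAP kinase signalling were followed in CD4+ T cells of the mouse spleen. The genes were taken by name, as the phosphatase genes Dusp1, Dusp2, Dusp4, Dusp5, Dusp6 and Dusp10 and the inhibitor genes Spry1, Spry2 and Spred1, and all 9 were among the 17523 genes of the table. The cells came from the spleens of C57BL/6 Gr/fr mice, in which the Csf2 allele also carries a Cre recombinase (iCre) and BFP, and Rosa26 carries eYFP behind a stop cassette that Cre removes. Every group carried these alleles, and YFP therefore marks cells that make or once made GM-CSF. A cell that made GM-CSF before the sort and one that makes it at the sort are both YFP+. CD4+ cells were sorted into naïve (CD44-) and effector memory (TEM, CD44hi) cells, each split into YFP- and YFP+, which gave 4 groups of 3 libraries. No age of these mice is used here. The labels do not tie a library to 1 animal.

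MAP kinases carry signals from the T cell receptor, costimulation and cytokines to the nucleus through a chain in which Ras activates Raf, Raf activates MEK and MEK activates ERK, and through parallel chains that end in p38 and JNK. The chains switch on genes that switch them off again. Dual-specificity phosphatases (Dusp) remove the phosphates that activate MAP kinases, while Sprouty (Spry) and Spred proteins act higher up, between receptor, Ras and Raf. Their transcripts are often read as a trace of recent signalling, although transcript level is not phosphatase activity.

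Between 40974124 and 57822269 reads fell on genes in each library. A gene's normalized count is its reads divided by the size factor of the library. The sort was visible in Cd44, a gene it used, which ranged from 2334 to 3372 normalized counts over the naïve libraries and from 21778 to 29383 over the TEM libraries. Cd4 was at 36078 or more everywhere. Markers of other cells were not even between the TEM fractions. Summed over 6 conventional dendritic cell markers, YFP- TEM libraries held 7918 to 15942 normalized counts and YFP+ TEM libraries 458 to 995, and 5 of the 6 (all but Xcr1) were lower in YFP+ TEM cells. Over 5 markers shared by NK and NKT cells the sums were 538 to 759 and 3568 to 6175, all 5 were higher in YFP+ TEM cells, and Ncr1, the one most particular to NK cells, was at 0 in all 3 YFP- TEM libraries and at 6.21 to 56.1 in the YFP+ ones. Over 2 CD8 markers the sums were 686 to 1490 and 187 to 373, and both were lower with YFP. Over 6 plasmacytoid dendritic cell markers they were 6648 to 12513 and 3171 to 5784, with 5 of the 6 lower. Among these 5 the log2 difference ran from -0.75 (Bst2) to -5.57 (Klk1), so the sum does not show the widest falls. Ccr9 had a higher mean with YFP (2442 against 975) and did not pass. Over 5 regulatory T cell markers the sums were 44168 to 61211 and 37171 to 42180, with 1 lower (Foxp3). Over 6 B cell markers they were 409 to 497 and 331 to 862, with 2 higher (Cd79a and Ebf1). Over 7 macrophage and neutrophil markers they were 4641 to 8790 and 1691 to 3487, with 1 lower (Adgre1). That last sum fell through Adgre1, Csf1r and Lyz2. Cd14, Mertk, S100a8 and S100a9 had higher means in YFP+ TEM cells (150.5, 92.5, 28.7 and 49.1) than in YFP- ones (30.2, 21.2, 0.494 and 1.48), without passing. Naïve libraries held less than every TEM library of the conventional dendritic cell sum (at most 321) and the plasmacytoid one (at most 2681). The same held for the NK and NKT (at most 287) and regulatory T cell sums (at most 7150). The macrophage and neutrophil sum was at most 575 in YFP- naïve libraries, and in YFP+ cells naïve and TEM libraries overlapped. The CD8 and B cell sums of TEM libraries did not lie above the naïve ones. The part of these cells in the results below was not tested. In sorted bulk RNA, fewer cells of a type and less RNA per cell cannot be told apart.

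The stretch just before the transcription start of 4 of the genes is shown because Dusp1 and Dusp5 hold classic elements of signal-induced genes there, and because Dusp6 and Dusp2 are the genes that differed with YFP. The sequences are RefSeq windows on GRCm38.p6, cut to the 250 bases before the start and written 5′ to 3′ in the direction of the gene, and 8 of the 9 genes were matched (Dusp4 was not). Capitals mark matches to the motifs searched on both strands: the cyclic AMP response element TGACGTCA, the AP-1 site TGANTCA, the CArG box, the ETS core CCGGAA, the TATA box as TATAAA, and the NFAT core GGAAAA.
Dusp1 (chromosome 17, minus strand, chr17:26508473-26508722): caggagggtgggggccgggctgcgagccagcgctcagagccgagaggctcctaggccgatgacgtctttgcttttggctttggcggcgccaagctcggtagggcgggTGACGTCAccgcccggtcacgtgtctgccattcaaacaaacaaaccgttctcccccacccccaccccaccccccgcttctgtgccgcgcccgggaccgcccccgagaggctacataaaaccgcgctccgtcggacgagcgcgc
Dusp5 (chromosome 19, plus strand, chr19:53528895-53529144): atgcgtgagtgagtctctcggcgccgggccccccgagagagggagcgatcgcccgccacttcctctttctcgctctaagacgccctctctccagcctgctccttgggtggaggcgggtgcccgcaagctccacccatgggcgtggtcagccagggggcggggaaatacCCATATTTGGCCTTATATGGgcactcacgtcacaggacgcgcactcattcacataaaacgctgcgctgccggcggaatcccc
Dusp6 (chromosome 10, plus strand, chr10:99262981-99263230): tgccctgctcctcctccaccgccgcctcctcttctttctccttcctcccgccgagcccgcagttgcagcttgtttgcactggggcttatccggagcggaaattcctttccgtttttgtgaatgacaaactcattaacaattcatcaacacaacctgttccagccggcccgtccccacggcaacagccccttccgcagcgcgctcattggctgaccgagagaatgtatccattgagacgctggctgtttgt
Dusp2 (chromosome 2, plus strand, chr2:127335909-127336158): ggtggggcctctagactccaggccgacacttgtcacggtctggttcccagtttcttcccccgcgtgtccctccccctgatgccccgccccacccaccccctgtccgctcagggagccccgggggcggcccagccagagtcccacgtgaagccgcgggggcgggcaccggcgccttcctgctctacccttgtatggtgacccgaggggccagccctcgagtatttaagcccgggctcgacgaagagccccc

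The Dusp1 window held 1 cyclic AMP response element, which begins 143 bases before the start, and 1.55% of 32851 RefSeq promoter windows of this length hold one. The Dusp5 window held 2 CArG boxes side by side, beginning 82 and 72 bases before the start, against 1.47% of windows with at least 1. The Spry2 window held 2 NFAT cores, against 20.4% of windows with at least 1. No other match fell in the windows of the matched genes, where AP-1 sites stand in 6.75% of windows, ETS cores in 12.03% and the TATA box in 12.4%. A match is a description of these letters, and the absence of one says nothing about the factor.

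The 9 genes spanned a wide range of levels. Counts per kb of exon, which allow genes to be set beside one another, were highest for Dusp2 in all 4 groups, with means from 7127 in YFP- TEM to 10603 in YFP+ TEM cells. In YFP- naïve cells Dusp10 followed at 2460 ± 884 (SD, n = 3) and Dusp1 at 1119 ± 376. In YFP+ TEM cells the order behind Dusp2 was Dusp1 at 4608 ± 2225, Dusp6 at 1987 ± 222, Dusp10 at 972 ± 340 and Spry1 at 966 ± 452 per kb, of which the last pair lay well within their spread. Spry2 was the lowest of the 9 in all 4 groups, at a mean of 0.354 per kb in YFP- naïve cells and 48.4 per kb in YFP+ TEM cells.

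**Figure D1:**
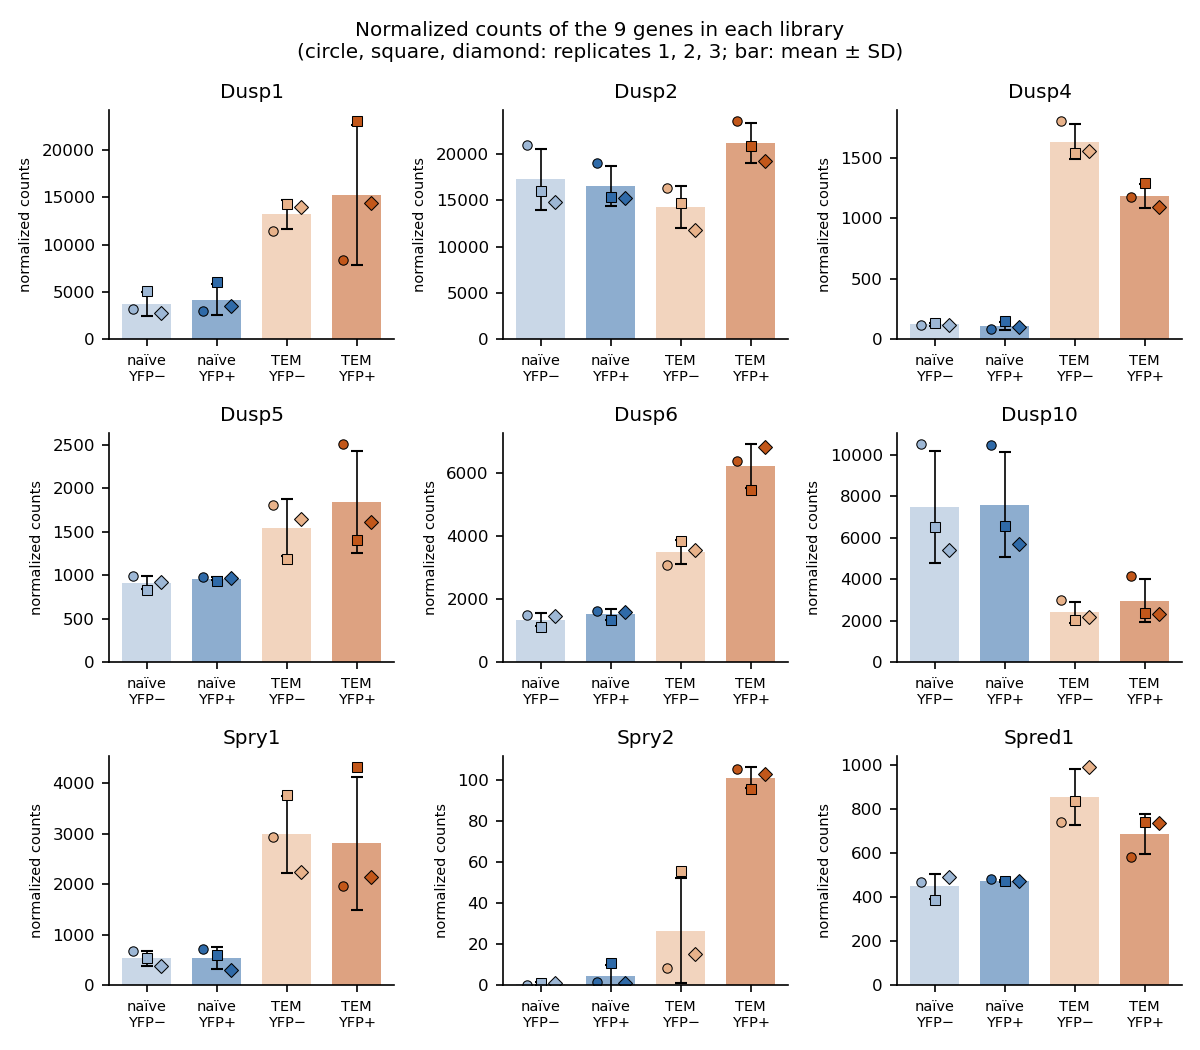
Normalized counts (y axes, from 0) of the 9 genes in naïve and TEM cells without and with YFP (x axes); symbols are the 3 libraries of a group, bars their mean and whiskers the SD, cut off at 0 where it is larger than the mean. Dusp6 steps up from naïve to YFP- TEM to YFP+ TEM cells, while Dusp10 is the gene that is lower in TEM cells.

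The first question was whether GM-CSF history goes with these genes among TEM cells. Dusp6 and Dusp2 were higher in YFP+ TEM cells, by 1.78-fold and 1.496-fold, and the other 7 genes did not pass the test. The 2 genes called higher of 9 stand beside 2.3% of 15587 tested genes called higher in this comparison and 4.67% called lower, and 0 of the 9 were lower. The median log2 difference of the 9 genes was 0.23 against -0.01 over all tested genes. Folds and log2 differences are on the scale of log2(normalized count + 1), and tests are limma's moderated test with p adjusted over all tested genes and called at 0.05.

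Dusp6 encodes a cytoplasmic phosphatase that acts on ERK in particular and is itself induced through ERK. It stood at 1492, 1114 and 1448 normalized counts in the YFP- naïve libraries and at 1625, 1327 and 1599 in the YFP+ naïve ones. In TEM cells it stood at 3074, 3853 and 3545 without YFP and at 6372, 5467 and 6833 with YFP. All 3 YFP+ TEM libraries lay above every YFP- TEM library, and both TEM fractions lay above all naïve libraries. The log2 difference between the TEM fractions was 0.83 (SE 0.13, limma adjusted p = 0.0021). It stayed past the threshold under each of 16 alternative settings, with adjusted p from 5.5e-07 to 0.0138. A further setting, an absolute log2 difference of at least 1, is not among these 16, and Dusp6 did not meet it. The model Gm34921 overlaps Dusp6, which lies on chromosome 10 (chr10:99263231-99267489, GRCm38.p6), and it is not given whether the counting used the strand.

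Dusp2 encodes a nuclear phosphatase abundant in blood cells that acts on ERK and p38. Its normalized counts were 20995, 16032 and 14833 in YFP- naïve, 19020, 15350 and 15258 in YFP+ naïve, 16302, 14706 and 11819 in YFP- TEM and 23564, 20867 and 19283 in YFP+ TEM libraries. The YFP+ TEM libraries lay above all YFP- TEM libraries, and the naïve values fell between and across both. The log2 difference between the TEM fractions was 0.58 (SE 0.15, limma adjusted p = 0.0406). This call lay near the threshold and was lost in 6 of the same 16 alternatives, and Dusp2 too did not reach an absolute log2 difference of 1. The adjusted p was above 0.05 without any of YFP- TEM replicates 2 and 3 or YFP+ TEM replicates 1, 2 and 3 (0.0842, 0.202, 0.159, 0.0829 and 0.0637). It was 0.0526 with a prior count of 0.1. In the other alternatives it was from 4.8e-04, with the replicate block, to 0.0418. With single libraries left out the log2 difference ranged from 0.45 to 0.68.

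Spry2, an inhibitor of receptor signalling to Ras, was nearly silent in most libraries. It had 0, 1 and 1 reads in YFP- naïve and 1, 11 and 1 reads in YFP+ naïve libraries. It reached 8.20, 55.6 and 15.3 normalized counts in YFP- TEM and 105, 95.3 and 103 in YFP+ TEM libraries. The YFP+ TEM libraries were close together and above all others, and the spread lay in the YFP- TEM libraries, where replicate 2 stood apart. The log2 difference of 2.32 (SE 0.77) did not pass over all genes (limma adjusted p = 0.109), and it passed when YFP- TEM replicate 2 was left out (0.0388), with a prior count of 5 (0.0242) and with quantile normalization (0.0223). With the replicate number as a block, which pairs libraries of the same number, the adjusted p was 0.0362.

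Dusp4, a nuclear phosphatase induced through ERK, went the other way in level without passing the test. It stood at 1802, 1538 and 1560 normalized counts in YFP- TEM and 1179, 1289 and 1090 in YFP+ TEM libraries, which do not overlap. The log2 difference was -0.46 (SE 0.18, limma adjusted p = 0.203), and it passed when only the 6 TEM libraries were fitted (0.0325) and in DESeq2 on the reads (0.0478). Groups that do not overlap were not rare: 25.0% of tested genes had none between the TEM fractions, and 4 of the 9 genes did (Dusp2, Dusp6 and Spry2 above, Dusp4 below).

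The other 5 genes differed less between the TEM fractions. Spred1, a membrane-bound inhibitor of Ras and Raf, had 739, 836 and 990 normalized counts in YFP- TEM and 579, 742 and 737 in YFP+ TEM libraries (log2 difference -0.32, SE 0.15, limma adjusted p = 0.292). The groups overlapped in 1 library, since YFP+ replicate 2 stood just above YFP- replicate 1. Log2 differences were 0.10 (SE 0.35) for Dusp1, 0.23 (SE 0.20) for Dusp5, 0.26 (SE 0.29) for Dusp10 and -0.15 (SE 0.36) for Spry1, with limma adjusted p from 0.683 to 0.953. Each of these 4 genes had overlapping TEM fractions and a larger standard error than Dusp2 and Dusp6.

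Among naïve cells the question was the same. In this comparison 0 of the 9 genes passed in limma, all with an adjusted p of 1, and 0.00642% of tested genes were called higher and 0% lower. Before adjustment, 518 of the tested genes had a p at or under 0.05. The median log2 difference of the 9 genes was 0.08 against 0.01 over all tested genes. Dusp6 differed by 0.17 (SE 0.13) and Dusp2 by -0.05 (SE 0.15), each with overlapping libraries. Some marker sums did not overlap between the naïve fractions. Regulatory T cell sums were 5821 to 7150 without and 3334 to 3752 with YFP, and CD8 sums 1166 to 1321 and 500 to 608. NK and NKT sums were 168 to 230 and 246 to 287. The other sums overlapped, no single marker passed, and the part of these cells was not tested. The library with 11 Spry2 reads, YFP+ naïve replicate 2, also stood apart in the sum of 7 macrophage and neutrophil markers, which was 3413 normalized counts there and 89.9 to 575 in the other 5 naïve libraries, and the part of such cells was not tested.

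An interaction term asked whether the YFP difference was the same in both cell types. None of the 9 genes passed in limma, where 0.828% of tested genes were called higher and 2.73% lower and 1828 had a p at or under 0.05 before adjustment. Dusp6 came nearest, with a difference of differences of 0.66 (SE 0.19, limma adjusted p = 0.0922), followed by Dusp2 at 0.64 (SE 0.22, adjusted p = 0.189). For Dusp6 the adjusted p was 0.0329 without YFP- naïve replicate 2 and 0.0291 in DESeq2. With the replicate block both passed (Dusp2 adjusted p = 0.0050, Dusp6 adjusted p = 0.0392). Whether the YFP differences of these genes differ between TEM and naïve cells thus depends on the fit.

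**Figure D2:**
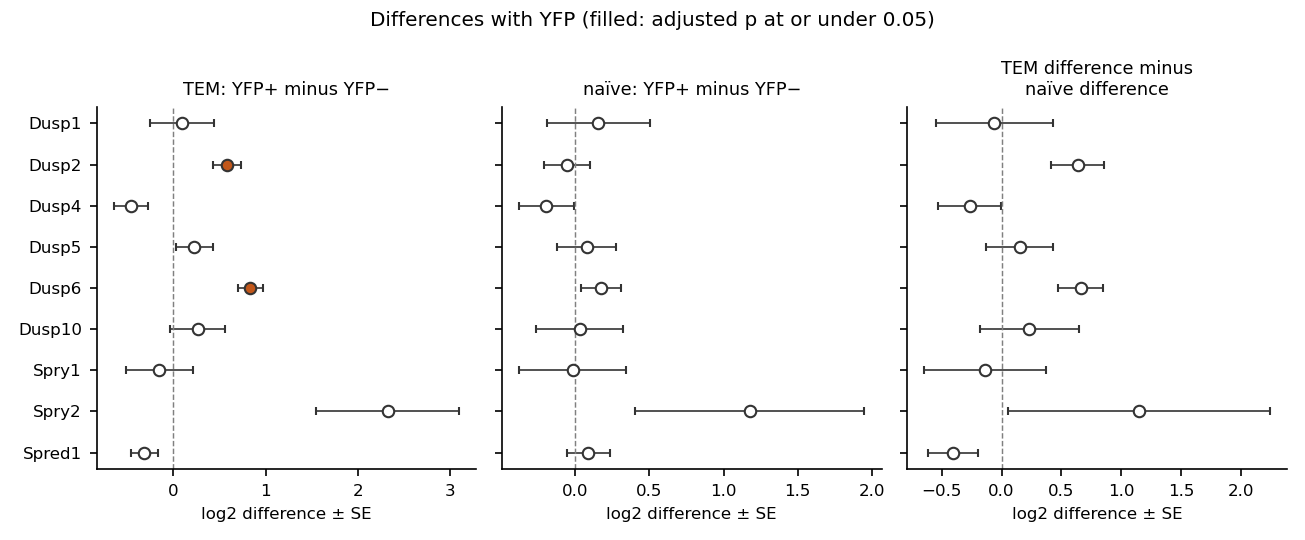
Log2 differences (x axes, points) with their standard errors (bars) for the 9 genes (y axis) in TEM cells, in naïve cells and for the difference between both; filled points have a limma adjusted p at or under 0.05. Only Dusp2 and Dusp6 in TEM cells are filled, and the Spry2 bar is the widest.

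The second question was how naïve and TEM cells compare, in YFP- and in YFP+ cells. These comparisons share their libraries with those above, so their values are given side by side and not as independent evidence. Sums of several markers of other cells differed between naïve and TEM libraries too, as given above, and the part of such cells was not tested. In YFP- cells 7 of the 9 genes were higher in TEM cells and 1 lower, beside 29.9% and 19.9% of tested genes. In YFP+ cells the count was again 7 higher and 1 lower, beside 24.7% and 16.7%. The median log2 difference of the 9 genes was 1.37 and 1.82, against 0.05 and 0.03 over all tested genes. The same 7 genes rose in both fractions (Dusp1, Dusp4, Dusp5, Dusp6, Spry1, Spry2 and Spred1), Dusp10 fell in both, and Dusp2 passed in neither. Naïve and TEM libraries that do not overlap were common, at 59.0% of tested genes in YFP- and 48.7% in YFP+ cells. Of the 9 genes, 7 lay above and 1 below without overlap in YFP- cells, and 8 above and 1 below in YFP+ cells.

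The nuclear phosphatases Dusp1, Dusp4 and Dusp5 were higher in TEM cells, to very different degrees. Dusp4 was at 114, 135 and 120 normalized counts in YFP- naïve and 84.1, 147 and 99.5 in YFP+ naïve libraries, below the TEM values given above by more than the spread. Its log2 difference was 3.72 (SE 0.18) in YFP- and 3.45 (SE 0.18) in YFP+ cells, with limma adjusted p of 1.4e-08 and 3.8e-08. Dusp1, an immediate early gene that acts on p38, JNK and ERK, stood at 3197, 5124 and 2795 in YFP- naïve, 2973, 6062 and 3515 in YFP+ naïve, 11425, 14232 and 13932 in YFP- TEM and 8368, 23025 and 14381 in YFP+ TEM libraries. Naïve and TEM values of Dusp1 did not overlap (log2 differences 1.88 and 1.82, SE 0.35 each, limma adjusted p 6.4e-04 and 0.0011). Dusp5, which is specific for ERK, rose least among the phosphatases, from 835 to 987 to 1183 to 1808 in YFP- cells and from 939 to 978 to 1405 to 2510 in YFP+ cells (log2 0.74 and 0.89, SE 0.20 each, limma adjusted p 0.0075 and 0.0030).

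Dusp6 gave log2 differences of 1.37 in YFP- and 2.04 in YFP+ cells (SE 0.13 each, limma adjusted p 3.6e-06 and 1.9e-07), that is 2.59-fold and 4.10-fold. Dusp10, a phosphatase that prefers p38 and JNK to ERK, was the single gene of the 9 that fell. It stood at 10525, 6503 and 5426 in YFP- naïve, 10482, 6588 and 5718 in YFP+ naïve, 2990, 2048 and 2185 in YFP- TEM and 4148, 2385 and 2334 in YFP+ TEM libraries, with no overlap between naïve and TEM cells. The log2 differences were -1.60 and -1.37 (SE 0.29 each, limma adjusted p 6.2e-04 and 0.0025). Dusp2 was at log2 -0.27 (SE 0.15, limma adjusted p = 0.165) in YFP- and 0.36 (SE 0.15, adjusted p = 0.0791) in YFP+ cells. The YFP- difference of Dusp2 passed with the replicate block (limma adjusted p = 0.0060). Deviations of same-numbered YFP- libraries of both cell types were weakly correlated (0.168, 0.137 and 0.232), and the labels do not say that they share an animal. The YFP+ difference passed with quantile normalization (0.0032) and without YFP+ naïve replicate 1 (0.0409).

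The Sprouty genes rose further than most of the phosphatases. Spry1, which restrains Ras activation and is known in T cells as a brake on receptor signalling, stood at 674, 541 and 371 in YFP- naïve, 722, 596 and 304 in YFP+ naïve, 2941, 3765 and 2249 in YFP- TEM and 1968, 4321 and 2135 in YFP+ TEM libraries. All 6 TEM libraries lay above all 6 naïve ones, and the 2 TEM fractions overlapped widely. The log2 differences were 2.51 and 2.37 (SE 0.36 each, limma adjusted p 8.9e-05 and 2.0e-04). Spry2 rested on 2 reads in YFP- naïve and 13 in YFP+ naïve cells. Its reads per unit of size factor were 37.7 times higher in YFP- TEM than in YFP- naïve cells (exact 95% interval 10.2 to 316) and 22.6 times higher in YFP+ TEM than in YFP+ naïve cells (13.0 to 42.9), intervals that cover counting error only. Both ratios rest on replicate 2: without YFP- TEM replicate 2, which held 75 of the 100 reads of its group, the first was 15.2 (3.79 to 132), and without YFP+ naïve replicate 2, which held 11 of 13 reads, the second was 95.2 (26.1 to 790). Both Spry2 comparisons passed (limma adjusted p 0.0018 and 3.2e-04). Spred1 gave 0.93 and 0.52 (SE 0.15 each, limma adjusted p 1.8e-04 and 0.0117), and the YFP+ value was no longer called with quantile normalization (0.31, adjusted p = 0.108). The YFP- values of Spred1 and Spry2 were smaller with it too, at 0.59 and 2.01 on the log2 scale, and that of Spry2 was 2.15 with a prior count of 5. Quantile normalization moved the median over all tested genes by -0.25 in YFP- and -0.17 in YFP+ cells.

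**Figure D3:**
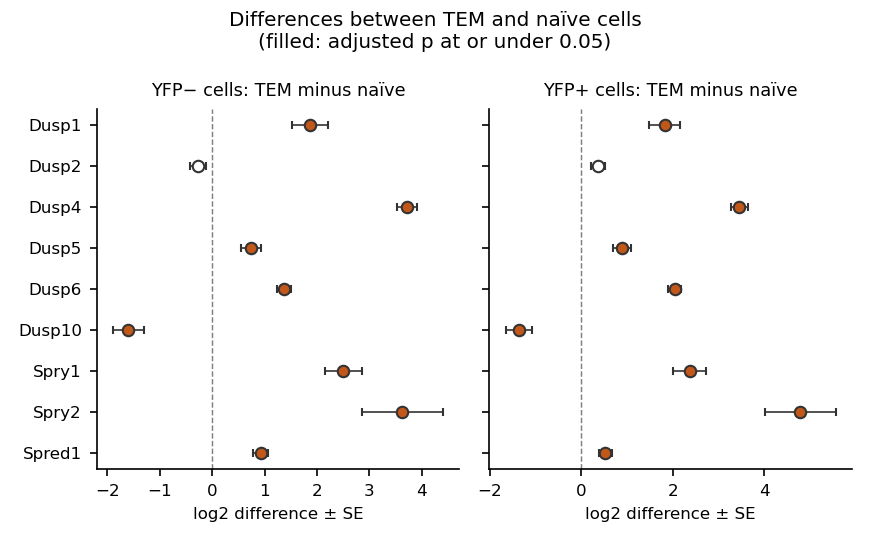
Log2 differences of TEM minus naïve cells (x axes, points) with standard errors (bars) for the 9 genes (y axis), in YFP- and YFP+ cells; filled points have a limma adjusted p at or under 0.05. Dusp4, Spry1 and Spry2 lie farthest to the right, Dusp10 to the left and Dusp2 near 0.

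Replicate libraries of one group differed in a patterned way for several of the genes. In all 4 groups the replicate 2 library had the highest Dusp1, and the replicate 1 library the highest Dusp2, Dusp5 and Dusp10. That makes 4 of the 9 genes with the same number highest in every group, beside 18.4% of the tested genes. The same number was lowest in every group for 2 of the 9 genes (Dusp2 and Dusp5), beside 19.2% of the tested genes, which is about that share. Spry1 and Dusp4 had no such number. In YFP+ TEM cells Dusp1 ran from 8368 in replicate 1 to 23025 in replicate 2, so this gene's error there is larger than its difference between the TEM fractions.

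**Figure D4:**
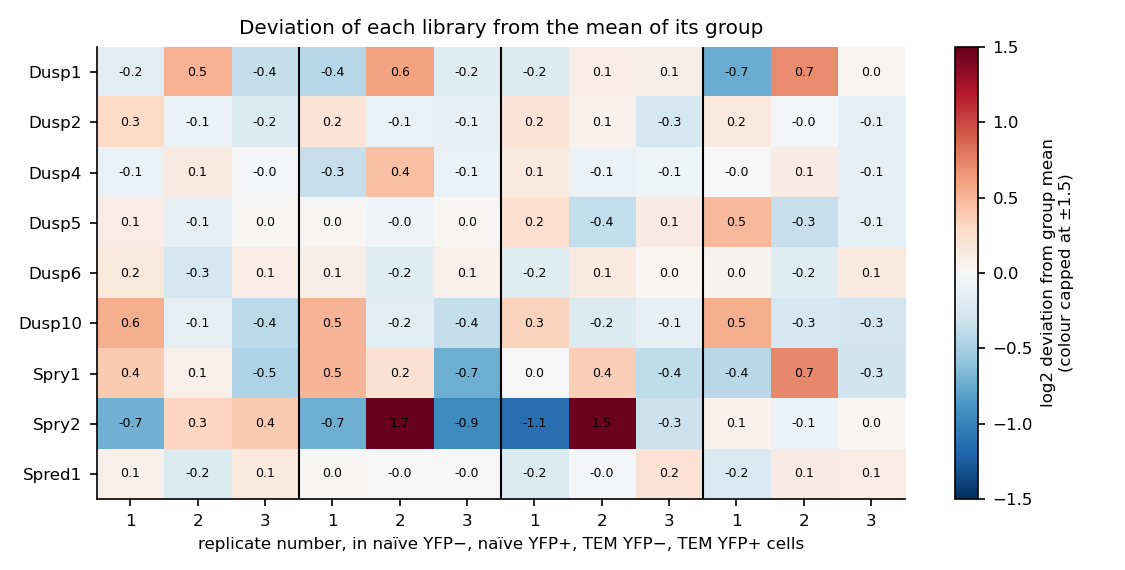
Log2 deviation (colour and printed value) of each of the 12 libraries (x axis, replicate number within each group) from the mean of its group, for the 9 genes (y axis). Dusp1 is highest in replicate 2 and Dusp2, Dusp5 and Dusp10 in replicate 1 in all 4 groups.

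The rest of both families gave a background for the 9 genes. Of 9 other MAP kinase phosphatase genes, 0 were higher and 1 lower in YFP+ than in YFP- TEM cells, beside 2.3% and 4.67% of tested genes. In TEM against naïve cells 7 were higher and 1 lower without YFP, beside 29.9% and 19.9% of tested genes. With YFP 6 were higher and 1 lower, beside 24.7% and 16.7%. The 1 that was lower with YFP was Dusp22, a phosphatase known as a brake on T cell receptor signalling, which stood at 372, 325 and 528 normalized counts in YFP- TEM and 149, 181 and 208 in YFP+ TEM libraries. All YFP+ TEM libraries lay below all YFP- ones, near the naïve level of 135 to 212 (log2 difference -1.17, SE 0.24, limma adjusted p = 0.0093), and the adjusted p was 0.0568 without YFP- TEM replicate 3. With the replicate block Dusp7 was called higher as well (log2 0.40, adjusted p = 0.0446). Dusp14, Dusp3 and Dusp9 showed the widest rises from naïve to TEM cells. Dusp14 went from at most 13.8 normalized counts in any naïve library to 271 or more in every TEM library. Dusp3, which acts on ERK and JNK, went from at most 51.2 to 146 or more, and Dusp9 from at most 9.30 to 43.5 or more. Of 3 other Sprouty and Spred genes, 0 passed in either direction between the TEM fractions. Spred2 was lower (log2 -0.43, limma adjusted p = 0.0322) and Spred3 higher (3.21, adjusted p = 0.0028) in TEM than in naïve cells without YFP, and 0 of the 3 passed with YFP.

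**Figure D5:**
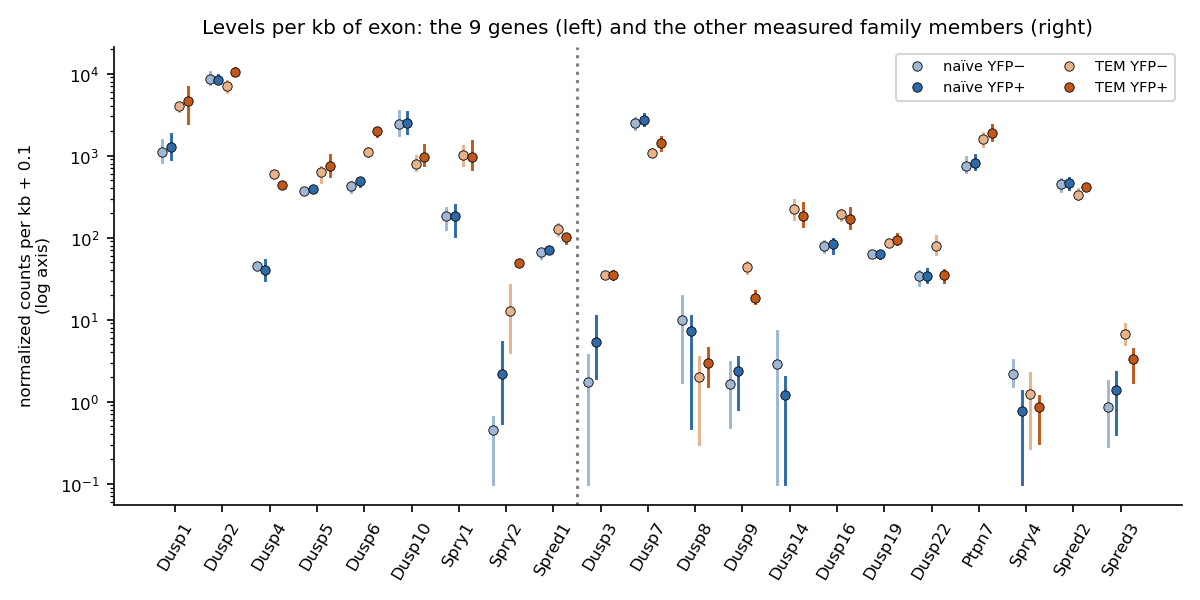
Normalized counts per kb of exon plus 0.1 (log axis) for the 9 genes (left of the dotted line) and 12 other family members (right), with the mean of the 3 libraries of each group as a point and their lowest to highest value as a line. Dusp2 is the highest of the 9 genes in all groups, and of the 9 genes Spry2 spans the widest range.

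Genes upstream in the chain were called with YFP at about the share of all tested genes, of which 2.3% were higher and 4.67% lower. Of 16 genes of the Ras to ERK chain, 1 was higher and 0 lower in YFP+ TEM cells. It was Sos2, an exchange factor that loads Ras with GTP, at 3127 to 3220 normalized counts without and 3680 to 3950 with YFP (log2 0.28, SE 0.07, limma adjusted p = 0.0225), a call lost without any of YFP- TEM replicates 1, 2 and 3 or YFP+ TEM replicates 2 and 3 (0.0816, 0.0522, 0.0875, 0.0658 and 0.0994). The replicate block added Rasgrp1, which also loads Ras (log2 0.56, adjusted p = 0.0051). Of 8 genes that switch Ras off, Rasa2 rose from 2733 to 2869 to 3186 to 4020 (log2 0.41, SE 0.09, limma adjusted p = 0.0134) and 0 fell. The Rasa2 call was lost without YFP- TEM replicate 1 (0.0540), YFP+ TEM replicate 2 (0.0545) or YFP+ TEM replicate 3 (0.0694). The replicate block added Rasal3 (log2 0.25, adjusted p = 0.0202) as higher and Dab2ip (-1.60, adjusted p = 0.0137) as lower. Between naïve and TEM cells, 29.9% of tested genes rose and 19.9% fell without YFP, and 24.7% rose and 16.7% fell with YFP. Beside these shares, 3 of the 16 chain genes rose and 6 fell without YFP, and 3 rose and 4 fell with YFP. Ksr1, a scaffold for Raf, MEK and ERK, rose (log2 1.83 and 1.74) and Rasgrp2, another Ras family exchange factor, fell (-1.72 and -1.57), as did Nras (-0.65 and -0.62). Of the 8 Ras-inactivating genes, 3 rose and 4 fell without YFP, and 3 rose and 2 fell with YFP, among them Dab2ip (5.89 and 3.23), Nf1 (0.87 and 0.53) and Rasa3 (-0.78 and -0.74).

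In the p38 and JNK chains 1 of 14 genes was higher and 1 lower in YFP+ TEM cells. Mapk10, the JNK gene best known from neurons, had 222 reads over the YFP+ TEM libraries and 3 over the YFP- ones, a ratio of 87.4 (exact 95% interval 29.5 to 427). The interval covers counting error only. Mapk10 had 0 reads in all 6 naïve libraries, and its difference between the TEM fractions passed (limma adjusted p = 2.3e-04). Mapk13, which encodes p38 delta, was at 208, 179 and 260 normalized counts in YFP- TEM and at 5.06, 5.18 and 10.5 in YFP+ TEM libraries (log2 -4.83, SE 0.61, limma adjusted p = 5.3e-04). Markers of several other cell types also differed between the TEM fractions, some higher and some lower with YFP. The part of such cells was not tested, for these or for the other genes that differed with YFP. Between naïve and TEM cells 4 of the 14 genes rose and 3 fell without YFP, and 4 rose and 2 fell with YFP. These counts lay near the shares of all tested genes, 29.9% and 19.9% without and 24.7% and 16.7% with YFP. Of the 14 genes, Mapk12 (2.23 and 2.15), Map2k3 (1.38 and 1.24) and Map3k5 (0.62 and 0.58) rose in both fractions. Mapk13 rose without YFP (5.83, limma adjusted p = 6.5e-06), and Mapk10 rose with YFP (limma adjusted p = 5.3e-06) from 0 reads in naïve cells.

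Genes that respond to ERK did not pass with YFP. Of 15 such genes, 0 were higher and 0 lower in YFP+ than in YFP- TEM cells, beside 2.3% and 4.67% of tested genes. Their median log2 difference was -0.0033. Between naïve and TEM cells 7 rose and 1 fell without YFP, beside 29.9% and 19.9% of tested genes. With YFP 6 rose and 1 fell, beside 24.7% and 16.7%. Etv5, an ETS factor often read with Dusp6 and the Sprouty genes as an ERK target, stood at 78.5 to 186 normalized counts without and 88.6 to 166 with YFP in naïve cells. In TEM cells it stood at 619, 778 and 854 without and 1245, 966 and 1397 with YFP. The YFP+ TEM libraries lay above the YFP- ones, yet the log2 difference of 0.68 (SE 0.30) did not pass (limma adjusted p = 0.280). Among the genes that rose in both fractions were the immediate early genes Ier3 (log2 4.62 without and 3.88 with YFP) and Fosb (3.58 and 2.69), and Etv5 (2.54 and 3.22). Fosb, like Dusp1, was highest in replicate 2 of every group, with 9084 normalized counts in YFP+ TEM replicate 2 and 1116 in replicate 1.

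For each of the 9 genes the 2 genes with the most similar values over the 12 libraries were sought among 11685 genes with a mean of at least 50. Because the libraries fall into 4 groups, these coefficients largely carry the naïve to TEM step, and they are given as a description. Dusp6 was most like Itgal (Pearson r = 0.991) and Sos2 (0.989). Dusp2 was most like Galnt2 (0.949) and Gpr171 (0.923), the lowest coefficients of the 9 genes. Dusp4 was closest to Cd83 and S100a4 (both 0.997), Spry1 to Gucy2g (0.993) and Apobec2 (0.992), Dusp10 to Tsc22d3 (0.991) and Frat1 (0.9901), and Spry2 to 5830432E09Rik (0.973) and Itga1 (0.960). Dusp1 was closest to Gm3055 and Popdc2 (both 0.981), Dusp5 to Irak2 (0.966) and Mgat5 (0.963), and Spred1 to Ap1s3 (0.988) and Far1 (0.985).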

How the data were processed

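The authors sequenced total RNA of the sorted cells with a stranded kit, mapped reads to mm10 with DRAGEN, counted them on genes with Rsubread and divided the counts by DESeq2 size factors. The annotation and strand setting are not given in the sources used here. The deposited values are this signal, normalized counts per Entrez gene, and all 12 columns were used. The size factor of a library was taken as the inverse of its smallest value above 0. Multiplied by the size factors, 100% of values were whole (tolerance 0.01). In YFP+ TEM replicate 1 the value of 1 read is close to 1 (size factor 0.989), and its reads were recovered in the same way. Recovered reads enter only the read numbers, the count tests, the TMM normalization, the simulated data, the floors and the ratios of reads. RefSeq on GRCm38.p6 named 16749 genes. Exon lengths from GENCODE M21 were available for 15018 genes.

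Values were analysed as log2(normalized count + 1). A gene was tested if 3 or more libraries had at least 5, as for 15587 genes. All 9 genes passed, Spry2 with 7 of the 12 libraries at 5 or more. One limma 3.58.1 fit (R 4.3.3) of 4 group means with a variance trend (8 residual degrees of freedom) gave 5 contrasts, adjusted over all tested genes by Benjamini and Hochberg and called at 0.05. The step was tested on simulated data. Groups of 3 against 3 cannot give an exact permutation p below 0.1, so none was used. The paper gives 3 mice, but the labels do not say which animal each library came from, and p-values measure the spread between these libraries.

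Libraries of the same replicate number deviated together between YFP+ and YFP- cells (correlations of deviations from group means 0.180, 0.338 and 0.356 in TEM and 0.306, 0.491 and 0.360 in naïve cells) and between naïve and TEM cells without YFP (0.168, 0.137 and 0.232), but not in each pair with YFP (0.204, -0.0199 and 0.0561).

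The 9 genes and all gene lists were chosen with earlier results of these data known. Genes named from the lists are those called in a YFP contrast or the interaction, and per list up to 3 with the widest TEM difference called in both fractions. Named beyond this rule are Dusp7, Rasgrp1 and Rasal3, called with YFP only under the replicate block. So are Spred2 and Spred3, called only between TEM and naïve cells without YFP. The alternatives tried were prior counts of 0.1 and 5, testing all genes or those with a mean from 10 up, TMM or quantile normalization, only the libraries compared, the replicate block, edgeR 4.0.16 and DESeq2 1.42.0 on the reads, an absolute log2 difference of at least 1, and leaving out each library. The ratios of Spry2 reads were also computed without each library, a choice made after seeing the data. One further sorting marker is not reported here.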

Additional observations from a re-analysis of the deposited data

Results flagged for a closer look

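Mapk10, Mapk13 and Dab2ip of the MAP kinase lists had a YFP difference that differed between TEM and naïve cells by limma's interaction test. For Mapk10 the difference of differences was 5.54 on the log2 scale (adjusted p = 0.0046), with 42.5 to 91.3 normalized counts in YFP+ TEM cells, 2.46 in 1 YFP- TEM library and 0 in the other 8 libraries. For Mapk13 it was -5.17 (adjusted p = 0.0073), with 179 to 260 normalized counts in YFP- TEM cells and at most 10.5 in every other library. For Dab2ip, which encodes a Ras GTPase activating protein, it was -2.66 (adjusted p = 0.0426), with 1108 to 1415 normalized counts in YFP- TEM, 353 to 576 in YFP+ TEM and at most 102 in naïve libraries. Leaving out 1 library raised the adjusted p to at most 0.0172 for Mapk10 and 0.0301 for Mapk13. The Dab2ip call was lost without any of YFP- naïve replicates 1 and 3, YFP- TEM replicates 1, 2 and 3 or YFP+ TEM replicates 1 and 3 (0.101, 0.108, 0.107, 0.0706, 0.121, 0.106 and 0.107). With a prior count of 0.1 the adjusted p was 0.0575 for Mapk10 and 0.0614 for Dab2ip, and for Mapk10, which had 0 reads in naïve cells, it was 0.9999 in edgeR and 0.0750 in DESeq2. Markers of dendritic cells and of NK and NKT cells differed between the TEM fractions as well, and the part of such cells in these 3 results was not tested. Groups of 3 libraries were not searched for single libraries that stand apart.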

How the results depend on the processing

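The 7 higher and 1 lower genes in TEM against naïve cells kept their direction under every alternative run. Between the TEM fractions the count of 2 called genes became 1 with a prior count of 0.1 and 0 with an absolute log2 difference of at least 1, was 3 with a prior count of 5, quantile normalization, only the libraries compared, the replicate block and DESeq2, and ranged from 1 to 2 with single libraries left out. For the interaction the count of 0 became 2 with the replicate block, 1 in DESeq2, and ranged from 0 to 1 with single libraries left out. Over all 4 groups 15 of 18 pairs of same-numbered libraries were correlated above 0.1, and those of YFP+ naïve and TEM cells were not in each pair. In YFP+ cells the replicate block also called Dusp2 between TEM and naïve (adjusted p = 0.0013), and it changed no other call of the 9 genes beside those given with the results. The causes were not tested.

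Some differences that did not pass changed sign. The naïve YFP difference of Spry1 was 0.021 in edgeR and 0.032 in DESeq2, against -0.015 as reported. The interaction was 0.076 and 0.034 for Dusp1, against -0.059, and -0.43 and -0.63 for Spry2, against 1.15 (SE 1.09). With single libraries left out, the YFP difference in TEM cells ranged from -0.26 to 0.47 for Dusp1, from -0.017 to 0.40 for Dusp5, from -0.0091 to 0.43 for Dusp10 and from -0.51 to 0.057 for Spry1. In naïve cells it ranged from -0.15 to 0.42 for Dusp1, from -0.16 to 0.094 for Dusp2, from -0.23 to 0.30 for Dusp10, from -0.27 to 0.35 for Spry1 and from -0.017 to 0.16 for Spred1. The interaction ranged from -0.42 to 0.31 for Dusp1, from -0.094 to 0.32 for Dusp5, from -0.042 to 0.49 for Dusp10 and from -0.51 to 0.12 for Spry1. Depth limits Spry2 alone, whose naïve libraries hold 11 reads or fewer.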
